A study of Mus musculus with 3 samples.

Results

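The DNA repair and repair polymerase genes described here were chosen by name: every gene whose symbol in the probe annotation begins with Xrcc, Rad and a digit, Ercc, Msh and a digit, Mlh, Fanc, Parp and a digit, Apex or Brca, together with Atm, Atr, Exo1, Ung, the ligases Lig1, Lig3 and Lig4 and the polymerases Polb, Polh, Poli, Polk, Poll, Polm and Polq. The rule uses no measured value. It gave 70 genes, each read by 1 probe, of the 16390 genes with a named probe. Of the 70, 60 were detected on all 3 arrays, 4 on 2 arrays, 3 on 1 array and 3 (Fancd2, Parp12 and Parp16) on none. Rad9, Rad51l1, Rad51l3 and Xrcc6bp1 are the annotation's older names for Rad9a, Rad51b, Rad51d and Atp23.

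Cells mend DNA by several routes. Base excision repair cuts out damaged bases, mismatch repair removes copying errors, and nucleotide excision repair removes bulky lesions. Breaks of both strands are joined end to end or repaired by homologous recombination from a sister chromatid, the Fanconi anaemia proteins unhook cross-linked strands, and translesion polymerases copy across damage that remains. B cells also put these enzymes to use on purpose: the deaminase AID makes uracil in immunoglobulin genes. Ung, Msh6, Exo1 and Polh help turn that uracil into mutations and class-switch breaks, and the end-joining factors join those breaks. Plasma cells, their antibody-secreting descendants, have largely left the cell cycle in their mature state.

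The cells came from mice with the IL-10 Venus reporter, whose Venus fluorescence marks cells that express Il10. Freshly isolated cells were sorted into 3 populations: B220+ spleen cells, labelled as the control, Venus+ CD138hi spleen cells and Venus+ CD138hi bone marrow cells. All groups share the reporter allele, and the number, age and treatment of the mice are not stated in the sources used here. Each population's RNA went onto 1 single-colour array. There are therefore no replicates, no difference was tested, and the array cannot be told apart from the population on it. The series deals with how class-switch recombination bears on IL-10 made by CD138hi cells, and the repair genes include the machinery of that recombination.

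A probe counted as detected when its spot lay more than 2 SD above the array's blank spots. Of 23473 probes, between 15857 (bone marrow) and 17239 (spleen Venus+ cells) were detected. Values are normalized signals, on a linear scale on which the median detected probe of an array is 25. Each is set only against the same probe on another array. Below, the spleen ratio is the log2 ratio of spleen Venus+ CD138hi over spleen B220+ cells, the marrow ratio that of marrow Venus+ CD138hi over spleen B220+ cells, and the organ ratio that of bone marrow over spleen Venus+ CD138hi cells. The marrow ratio changes organ and cell type together, and it shares the B220+ array with the spleen ratio. The ± value is the spot error, computed from control spots of the arrays, and holds nothing of the spread between mice or sorts. In every count, a gene is higher or lower only where both arrays detected it and it differed at least 2-fold. In a sentence on 1 gene's signals the words give their order.

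Markers of the labelled cell types were present. Of 5 plasma cell markers with a probe, 4 were higher in spleen Venus+ cells, and the fifth, Tnfrsf17, was detected in the Venus+ cells alone. Their summed signal was 686 for B220+, 9947 for spleen Venus+ and 12279 for marrow Venus+ cells. Of 7 mature B cell markers, 6 were lower in spleen Venus+ cells and Cr2 was not detected there, with sums of 27626, 10150 and 4207. Markers of other cells also differed. The 7 neutrophil markers summed to 4956 for B220+, 116 for spleen Venus+ and 533 for marrow Venus+ cells, with 2 lower in spleen Venus+ cells, 4 (S100a9, Camp, Ltf and Mpo) not detected there and 1 (Ly6g) higher. The 5 T cell markers summed to 19.5, 118 and 73.5, with Cd3e and Cd3g not detected in B220+ cells. Of the remaining lists, 4 erythroid markers summed to 281, 45.2 and 43.3, and 5 monocyte and macrophage markers to 72.3, 139 and 272. The part of these other cells in the results below was not tested, and in sorted bulk RNA fewer cells of a type and less RNA per cell cannot be told apart.

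Most repair genes had smaller signals in the Venus+ CD138hi cells than in B220+ cells. Of 64 members detected in both spleen populations, 50 (78.1%) had a spleen ratio below 0, against 50.7% of all genes. At least 2-fold differences were fewer: 18 (28.1%) were at least 2-fold lower, against 16.5% of all genes, and 2 (3.12%) were at least 2-fold higher, against 15.7% of all genes. The median member stood at -0.72 on the log2 scale, and that of 11617 genes at -0.02. The marrow ratio was below 0 for 52 of 60 members (86.7%), against 56.4% of all genes. In marrow Venus+ cells 37 of 60 members (61.7%) were lower than in B220+ cells, against 30.7% of all genes, and 2 (3.33%) were higher, against 22.4%. The median marrow ratio of the members was -1.28, and that of all genes -0.24. The 2 members higher in the spleen were Xrcc3 and Lig3, and the 2 higher in the marrow were Xrcc3 and Polh.

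Within the Venus+ cells, the bone marrow array was the lower of the pair for most members. Of 60 members, 50 (83.3%) had an organ ratio below 0, against 59.3% of all genes. Of the same 60, 20 (33.3%) were at least 2-fold lower in bone marrow than in spleen, against 15.2% of all genes. Only 1 (Xrcc3) was higher, against 4.33%. The median organ ratio was -0.71 for the members and -0.17 for all genes. Of the 60 members detected on all 3 arrays, 40 (66.7%) had their highest signal in B220+ cells, a lower one in spleen Venus+ cells and the lowest in marrow Venus+ cells, against 40.8% of all genes. The reverse order held for 3 members (5%), Xrcc3, Polh and Msh4, against 30.1% of all genes. These orders rank the signals without a margin and were counted with the main scaling only. Some steps lay within the spot error, such as the organ ratio of Brca2 (-0.29 ± 0.36) and the spleen ratio of Msh4 (0.14 ± 0.19).

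The scaling of the arrays moved all genes together, so the members are best read against the median of all genes. Relative to it, the members' median was -0.70 for the spleen ratio, -1.04 for the marrow ratio and -0.54 for the organ ratio. Scaling the arrays to the probes detected on all 3 shifted the median of all genes to -0.06, 0.05 and 0.16. It gave 30 members lower and 2 higher for the marrow ratio, beside 24.1% and 28.3% of all genes, and 12 lower and 3 higher for the organ ratio, beside 8.07% and 11.01%. Scaling to the 75th percentile gave 26 lower and 3 higher for the marrow ratio, beside 20.4% and 32.2% of all genes, and 12 and 3 for the organ ratio, beside 7.94% and 11.4%. Quantile normalization gave 15 and 3 for the organ ratio, beside 10.2% and 10.8%. Taking spots without a probe as the blank gave 9 lower and 5 higher for the spleen ratio, beside 9.94% and 26.4%. A normexp background correction adds an offset of 50 to every signal, which by construction draws the ratios of dim probes towards 0. With the blank level as its background it left 7 of 64 members lower for the spleen ratio. It left 19 of 60 for the marrow ratio and 2 of 60 for the organ ratio, and 0 higher in each. Of all genes it left 10.1%, 19.8% and 2.77% lower and 3.53%, 5.34% and 0.55% higher. With the scanner's local background it left 1, 4 and 1 lower and 0 higher. Of all genes it left 4.40%, 9.45% and 3.30% lower and 3.11%, 2.97% and 0.72% higher. On the local background, then, a smaller share of the members than of all genes was called lower. In all 11 settings the members' median was below that of all genes in each comparison. Scaling to common probes or to the 75th percentile multiplies an array by a constant, so it could not change this gap. The deposited table has the same normalization and the mean of probes leaves members with 1 probe unchanged, so neither tests the gap. With normexp on the local background the gaps were only -0.07, -0.11 and -0.03.

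**Figure D1:**
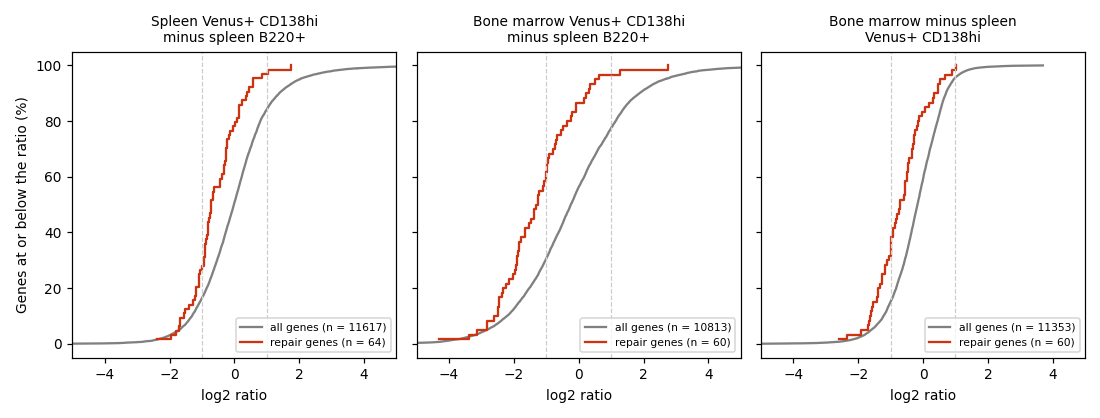
Cumulative share of genes (%) at or below each log2 ratio, for the repair genes (red steps) and all genes detected on both arrays (grey line), in the 3 comparisons; dashed lines mark 2-fold. The red curve lies left of the grey one around the middle of each panel, with medians of -0.72, -1.28 and -0.71 against -0.02, -0.24 and -0.17.

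**Figure D2:**
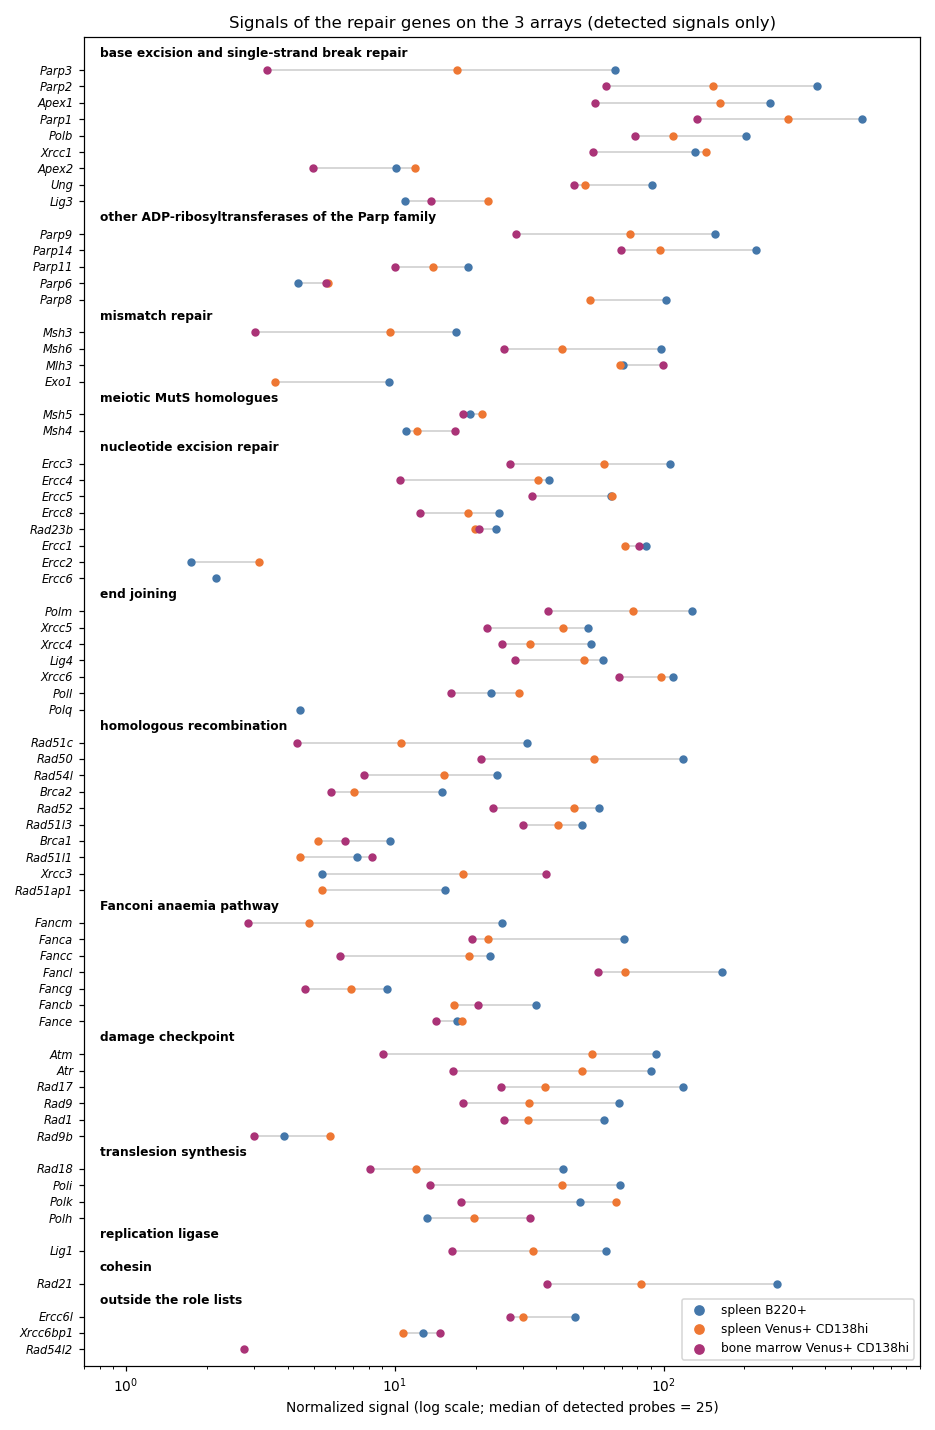
Normalized signal (log axis) of each of the 67 repair genes detected on at least 1 array, grouped by role; blue, spleen B220+; orange, spleen Venus+ CD138hi; purple, bone marrow Venus+ CD138hi cells; 1 array each, and a signal below the detection limit has no point. For 40 genes the points run from purple through orange to blue from left to right, and Xrcc3, Polh and Msh4 run the other way.

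Base excision and single-strand break repair held the member with the smallest marrow ratio. Of its 9 genes, 2 were lower, 1 was higher and 6 lay between for the spleen ratio (median -0.82). For the marrow ratio 7 were lower and none higher (median -1.37). Over all genes 16.5% were lower and 15.7% higher for the spleen ratio, and 30.7% and 22.4% for the marrow ratio. Of the 7, Apex2, Xrcc1 and Polb fell under 2-fold in 2 or 3 settings each outside the normexp pair. For the spleen ratio Parp2 did so in 2 of 8. Parp3, an ADP-ribosyltransferase that acts at strand breaks, had signals of 65.9 for B220+, 17.0 for spleen Venus+ and 3.35 for marrow Venus+ cells. It was lower at each step, 3.88-fold from B220+ to spleen Venus+ cells (-1.96 ± 0.16) and 5.07-fold from spleen to bone marrow (-2.34 ± 0.52), where its signal lay close to the lowest detected one of 2.35. Parp1 and Parp2, which sense breaks and build poly-ADP-ribose on nearby proteins, had the same order. Parp2 read 372, 153 and 61.0 and Parp1 547, 289.7 and 134, so that each was lowest in bone marrow. Their marrow ratios were -2.61 ± 0.13 and -2.03 ± 0.13.

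The other genes of this list differed from one another. Apex1, the main endonuclease at sites that have lost a base, read 248 for B220+, 162 for spleen Venus+ and 55.4 for marrow Venus+ cells, a difference that lay mostly between the 2 Venus+ arrays (-1.54 ± 0.12). Its relative Apex2 read 10.1, 11.9 and 4.98. Ung, the glycosylase that removes the uracil made by AID, read 90.5, 51.1 and 46.6, less than 2-fold apart on every pair of arrays. Polb, which fills the gap, read 203, 109 and 78.6 and stood at -0.90 ± 0.14 for the spleen ratio and -1.37 ± 0.13 for the marrow ratio. Xrcc1, the scaffold that holds ligase III, was level between B220+ and spleen Venus+ cells (131 and 144) and lower in bone marrow (54.7). Lig3, the ligase it holds, was highest in spleen Venus+ cells, with 10.95, 22.2 and 13.6, and its spleen ratio of 1.02 ± 0.17 lay barely past 2-fold. It was under 2-fold with the arrays scaled to the probes detected on all 3 (0.98) and with quantile normalization (0.82).

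The other ADP-ribosyltransferases of the Parp family are not classical repair enzymes, and several belong to the interferon response. Of 7 members, 5 were detected in both spleen populations, 2 of them lower (median -0.95). Outside the normexp pair these 2, Parp14 and Parp9, fell under 2-fold in 2 and 3 of 8 settings. Parp14 read 220.1, 97.4 and 69.5, and Parp9, which works with the ubiquitin ligase Dtx3l, read 155, 74.8 and 28.2. Both were lowest in bone marrow, with marrow ratios of -1.66 ± 0.13 and -2.46 ± 0.14. Dtx3l itself stood at -0.93 and -3.21 for the spleen and marrow ratios. Parp8 was detected in B220+ (102) and spleen Venus+ cells (53.2) but not in marrow Venus+ cells, a difference of at least 43.6-fold from B220+ and at least 22.6-fold from spleen Venus+ cells. It was the largest of the bounds among the members. Parp6 (4.36, 5.65 and 5.55) had a spleen ratio of 0.37 ± 0.34, near its spot error. Parp11 read 18.8, 13.9 and 10.02, a marrow ratio of -0.91 ± 0.22. In a list of interferon response genes, 4 of 9 detected in both spleen populations were lower and none higher (median -0.93), and for the marrow ratio 4 of 8 were lower and 1 higher (median -1.36). Over all genes 16.5% were lower and 15.7% higher for the spleen ratio, and 30.7% and 22.4% for the marrow ratio.

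In mismatch repair, 2 of 4 genes (Msh6 and Exo1) were lower for the spleen ratio (median -1.02), against 16.5% of all genes. For the marrow ratio 2 of 3 (Msh6 and Msh3) were lower (median -1.93), against 30.7%. None was higher for either, against 15.7% and 22.4%. Msh6, which with its partner binds single mismatches and also reads AID lesions, had signals of 97.9, 42.0 and 25.6, lower at each step, with a spleen ratio of -1.22 ± 0.14 and a marrow ratio of -1.93 ± 0.15. Msh3, which recognises longer loops, read 16.9, 9.58 and 3.01, a marrow ratio of -2.49 ± 0.58. Exo1, which removes the strand around the mismatch, read 9.54 and 3.60 in the spleen arrays and was not detected in bone marrow, at least 4.06-fold below B220+ cells. Mlh3, an endonuclease partner in the MutL family, read 70.6, 69.1 and 99.4 and was highest in bone marrow, short of 2-fold. The meiotic homologues Msh4 (11, 12.1 and 16.8) and Msh5 (19.1, 21.1 and 17.96) also stayed within 2-fold on every pair of arrays.

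**Figure D3:**
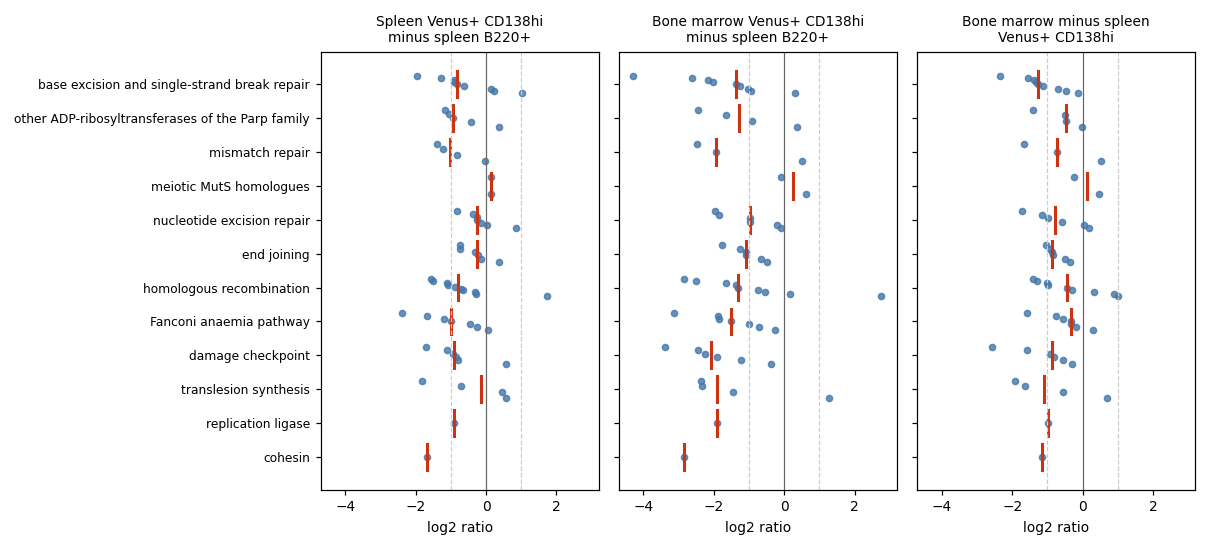
Log2 ratio (horizontal axis) of each repair gene detected on both arrays, by role list (rows), in the 3 comparisons; blue points are genes, the red bar is the median of the list, and dashed lines mark 2-fold. The checkpoint list has the lowest median marrow ratio among lists of more than 1 gene (-2.08), and the lone points to the right are Xrcc3 (2.76) and Polh (1.27).

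None of 7 nucleotide excision repair genes detected in both spleen populations was called (median -0.26), against 16.5% of all genes lower and 15.7% higher. For the marrow ratio 2 of 6 were lower (median -0.97), near the 30.7% of all genes. The contrast within this list was between partners. Ercc1 and Ercc4 encode the 2 subunits of the nuclease that makes one of the cuts around a lesion. Ercc1 stayed within 2-fold at 86.2, 72.1 and 81.2, while Ercc4 read 37.7, 34.3 and 10.5 and was 3.27-fold lower in bone marrow than in spleen Venus+ cells (-1.71 ± 0.20). Ercc3, a helicase of the repair and transcription factor TFIIH, read 106, 60.3 and 26.9, lower at each step. Ercc5, the nuclease of the other cut, read 63.8, 64.6 and 32.5 and with a marrow ratio of -0.97 ± 0.14 stayed just inside 2-fold. Ercc8, which acts where transcription has stalled, read 24.4, 18.8 and 12.5 and also stood at -0.97 (± 0.19). Rad23b, a partner of the damage sensor Xpc, stayed within 2-fold (23.7, 19.9 and 20.7). Ercc2 and Ercc6 lay near the detection limit, with at most 3.14 and 2.17 on any array.

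Among the 6 end-joining genes detected in both spleen populations none was called (median -0.27), while 16.5% of all genes were lower and 15.7% higher. For the marrow ratio 4 of 6 were lower (median -1.09), against 30.7% of all genes. Xrcc5 and Xrcc6 encode the Ku subunits that grip broken ends. Xrcc6 read 108, 97.5 and 68.6, within 2-fold throughout, and Xrcc5 52.6, 42.2 and 22.1, with a marrow ratio of -1.25 ± 0.15. Xrcc4, the scaffold of the sealing step, read 53.8, 32.0 and 25.1, and Lig4, its ligase, 59.4, 50.8 and 28.0. They had marrow ratios of -1.10 ± 0.15 and -1.08 ± 0.15, just past 2-fold. With each of the 3 other scalings Xrcc5, Xrcc4 and Lig4 lay under 2-fold, with values nearest 0 of -0.75, -0.60 and -0.59 at the 75th percentile, which left Polm as the only member called lower. Xrcc4 and Lig4 were also under 2-fold with spots without a probe as the blank. Of the gap-filling polymerases, Polm read 127, 76.9 and 37.2 and Poll 22.7, 29.1 and 16.2, so that Polm alone was called for the marrow ratio (-1.78 ± 0.14). Polq, the polymerase of alternative end joining, was detected in B220+ cells alone, at 4.44, at least 2.55-fold above spleen Venus+ cells.

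Homologous recombination held both the member with the largest ratio and several of the lowest. Of 10 genes, 4 were lower and 1 was higher for the spleen ratio (median -0.80), beside 16.5% and 15.7% of all genes. Of 9, 5 were lower and 1 was higher for the marrow ratio (median -1.31), beside 30.7% and 22.4%. For the spleen ratio Rad50 fell under 2-fold in 3 of 8 settings outside the normexp pair, and Brca2 in 2 of 7. For the marrow ratio Rad52 did so in 2 of 8 and Brca2 in 1 of 7. Xrcc3, a recombination protein that acts after a break has been resected, had signals of 5.37 for B220+, 18.01 for spleen Venus+ and 36.5 for marrow Venus+ cells. It was higher at each step, 3.35-fold in the spleen (1.74 ± 0.24) and a further 2.02-fold in bone marrow (1.02 ± 0.14), and 6.78-fold above B220+ cells (2.76 ± 0.23). Outside the normexp settings its spleen ratio ranged from 1.44 to 2.48 and its marrow ratio from 2.76 to 3.39, while its organ ratio was 0.92, under 2-fold, with spots without a probe as the blank. With the normexp correction they were 0.50 and 0.86 on the blank level, and -0.09 and 0.12 on the local background.

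Rad51c, the protein that pairs with Xrcc3 in a 2-member complex, had the opposite order: its signals were 31.0, 10.5 and 4.34, a marrow ratio of -2.84 ± 0.41. Both Rad51l3 and Rad51l1 stayed within 2-fold, with Rad51l3 at 49.8, 40.5 and 29.9 and Rad51l1 at 7.28, 4.43 and 8.22. Rad50, part of the complex that first binds a break, read 118, 54.9 and 20.9, lower at each step. Rad52, a strand-annealing protein, read 57.7, 46.5 and 23.2, and Rad54l, a motor protein of the same route, 24.1, 15.2 and 7.70. Their spleen ratios were -0.31 ± 0.14 and -0.66 ± 0.16, and both were lower for the marrow ratio (-1.31 ± 0.15 and -1.64 ± 0.26). Rad52 was also called for the organ ratio (-1.002 ± 0.14), barely past 2-fold. Brca2, a mediator of recombination, read 15.0, 7.09 and 5.79. Brca1, its partner in the same route, read 9.60, 5.21 and 6.54, a marrow ratio of -0.55 ± 0.31. Rad51ap1, a recombination cofactor, read 15.5 and 5.39 in the spleen and was not detected in bone marrow, at least 6.57-fold below B220+ cells.

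**Figure D4:**
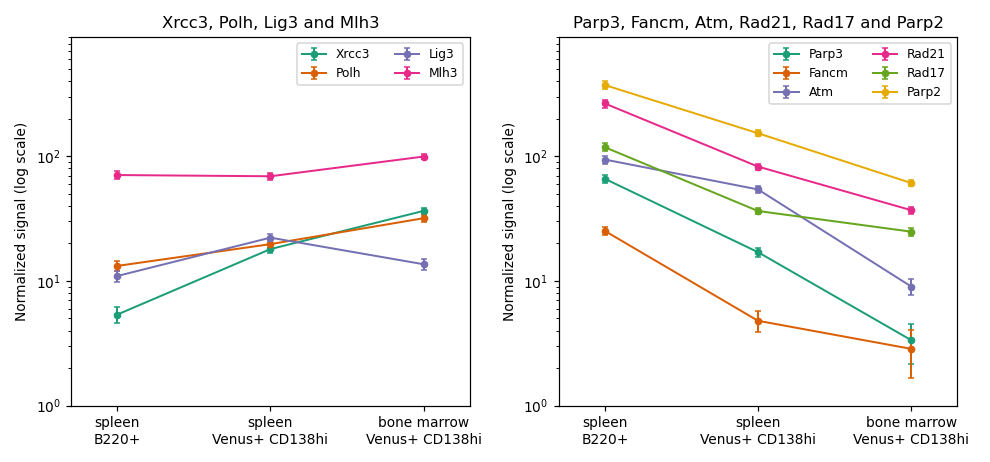
Normalized signal (log axis) of Xrcc3, Polh, Lig3 and Mlh3 (left) and of Parp3, Fancm, Atm, Rad21, Rad17 and Parp2 (right) on the 3 arrays, 1 array each; bars are spot errors and lines join the same probe. Xrcc3 goes from 5.37 to 36.5 and Polh from 13.2 to 31.8, while each gene on the right is lower on every array from left to right, Atm with its larger step between the Venus+ arrays.

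In the Fanconi anaemia pathway, 4 of 7 genes were lower for the spleen ratio (median -1.01), against 16.5% of all genes. For the marrow ratio 5 of 7 were lower (median -1.53), against 30.7%. None was higher for either, against 15.7% and 22.4%. Fancm, the DNA motor that recruits the core complex to stalled forks, had the smallest spleen ratio of all members: it read 25.2, 4.79 and 2.85, 5.25-fold lower in spleen Venus+ cells (-2.39 ± 0.30). Its 2 Venus+ signals lay close together given their spot error (-0.75 ± 0.66). Fanca, a core complex subunit, read 71.3, 22.2 and 19.4, and Fancl, the core's ubiquitin ligase, 165, 72.2 and 57.1. Both differed mainly between the cell types, with organ ratios of -0.20 ± 0.15 and -0.34 ± 0.12. Fancc had the other pattern, 22.7 and 18.9 in the spleen and 6.29 in bone marrow. Fancb (33.5, 16.6 and 20.4), Fancg (9.34, 6.86 and 4.64) and Fance (17.0, 17.9 and 14.3) completed the list. Of these, Fancb was barely called for the spleen ratio (-1.01 ± 0.16), Fancg for the marrow ratio (-1.01 ± 0.40), and Fance for none. Outside the normexp pair, Fancb and Fancl fell under 2-fold for the spleen ratio in 3 and 2 of 8 settings. Their values nearest 0 there were -0.64 and -0.83. For the marrow ratio Fancg fell under 2-fold in 3 of 7 and Fancl in 1 of 8.

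The damage checkpoint genes had 2 of 6 members lower for the spleen ratio (median -0.90), against 16.5% of all genes. They had 5 of 6 lower for the marrow ratio (median -2.08), against 30.7%. Atm, the kinase that answers double-strand breaks, had signals of 94.1, 54.2 and 9.02, so its main step lay between the organs: 6.0-fold from spleen to marrow Venus+ cells (-2.59 ± 0.22). Atr, the kinase that answers stalled replication, read 89.9, 49.6 and 16.5 and likewise had its larger step there (-1.59 ± 0.15). Rad17, which loads the clamp made of Rad9, Rad1 and Hus1 at damage, read 118, 36.4 and 24.8, with its main step between the cell types (-1.70 ± 0.14). Of the clamp, Rad9 read 68.0, 31.7 and 18 and Rad1 60.1, 31.2 and 25.5, both highest in B220+ cells and lowest in bone marrow. For the spleen ratio Rad9 passed 2-fold (-1.10 ± 0.14) and Rad1 fell just short of it (-0.94 ± 0.14). Outside the normexp pair Rad9 was under 2-fold there in 2 of 8 settings (nearest 0, -0.74). For the marrow ratio Rad1 was under 2-fold in 3 of 8. The Rad9 paralogue Rad9b stayed between 3.01 and 5.74.

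Among the translesion polymerases Polh stood apart. Polh, the polymerase that copies across ultraviolet damage and makes the A:T mutations of immunoglobulin genes, read 13.2 for B220+, 19.7 for spleen Venus+ and 31.8 for marrow Venus+ cells. It was higher on each array, and 2.41-fold above B220+ cells in bone marrow (1.27 ± 0.16). Its relatives in the same polymerase family were lower in bone marrow: Poli read 68.9, 41.9 and 13.6 (marrow ratio -2.34 ± 0.18), and Polk 48.7, 66.6 and 17.6 (-1.47 ± 0.16). Rad18, the ubiquitin ligase that calls these polymerases to PCNA, read 42.4, 12.1 and 8.14, 3.51-fold lower in spleen Venus+ cells. Outside the normexp settings the marrow ratio of Polh ranged from 1.27 to 1.77, and the normexp correction took it to 0.49 on the blank level and 0.18 on the local background.

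Of the remaining members, Rad21, the cohesin subunit that closes the ring around sister chromatids, read 265, 82.6 and 36.9, a marrow ratio of -2.84 ± 0.14. Lig1, the ligase of DNA replication, read 61.3, 32.6 and 16.4, lower at each step and called in the marrow comparison (-1.90 ± 0.17). Ercc6l, a mitotic helicase that shares only its name with the excision genes, read 46.8, 29.9 and 27.0. Xrcc6bp1 (12.8, 10.8 and 14.8) stayed within 2-fold, and Rad54l2 was detected in bone marrow alone, at 2.77.

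The organ ratio, set out by role beside the 15.2% of all genes that were lower, was called lower for 6 of 9 base excision genes (median -1.25), 2 of 4 translesion genes (-1.10), 2 of 6 checkpoint genes (-0.87), 2 of 6 nucleotide excision genes (-0.79), 1 of 6 end-joining genes (-0.85), 1 of 3 mismatch repair genes (-0.71) and 1 of 4 of the other Parp genes (-0.48). In homologous recombination 3 of 9 were lower and 1 higher (-0.44), and in the Fanconi anaemia pathway 1 of 7 was lower (-0.34). The meiotic pair was not called. Outside the normexp settings, Apex2, Parp1, Parp2, Ercc3, Polm, Rad51c and Rad52 lost their call in at least 2 settings each. Rad21, whose organ ratio of -1.16 ± 0.12 was also called, lost its call in 3 of 8. Differences between these lists were not tested.

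Taking the members with a known part in class switching and somatic hypermutation as a group, 15 of the 17 genes listed had a probe under the name rule, and the others are not analysed here. Of 14 detected in both spleen populations, 3 (Msh6, Exo1 and Rad18) were lower and none higher, with a median of -0.69, beside 16.5% of all genes lower and 15.7% higher. Of 13 for the marrow ratio, 10 were lower and 1, Polh, higher, with a median of -1.25, beside 30.7% and 22.4% of all genes. Ung and Xrcc6 were the 2 that lay between. Of the 10, Apex2, Xrcc1, Xrcc4, Xrcc5 and Lig4 fell under 2-fold in 3 or 4 settings each outside the normexp pair. Their values nearest 0 there were -0.52, -0.67, -0.60, -0.75 and -0.59.

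Repair genes that the name rule leaves out were compared through a list of them, of which 60 have a probe. Of 55 detected in both spleen populations, 15 were lower and 1 was higher (median -0.75), beside 16.5% and 15.7% of all genes. For the marrow ratio 29 of 51 were lower and 3 higher (median -1.14), and for the organ ratio 16 of 51 were lower and 1 higher (median -0.52). Over all genes these shares were 30.7% and 22.4%, and 15.2% and 4.33%. Topbp1, the activator of Atr, had the smallest marrow ratio of the list (-4.00), followed by the mismatch gene Pms1 (-3.56) and the helicase gene Wrn (-3.07). The 3 that were higher were Gtf2h4, a TFIIH subunit (2.09), Mus81, a nuclease that resolves recombination intermediates (2.0), and Tdg, a thymine DNA glycosylase (1.16). Prkdc, the kinase that Ku recruits, stood at -0.37 and -1.14 for the spleen and marrow ratios, and Trp53bp1, which protects switch breaks from resection, at -0.55 and -0.79.

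Proliferation markers, several of which are expressed with repair genes in dividing cells, were lower on balance. Of 24 markers detected in both spleen populations, 15 were lower and 1 was higher (median -1.28), and of 21 for the marrow ratio 16 were lower and none higher (median -2.08). The shares of all genes were 16.5% lower and 15.7% higher, and 30.7% and 22.4%. The markers' summed signal was 4574 for B220+, 2072 for spleen Venus+ and 1138 for marrow Venus+ cells. Top2a read 134, 37.3 and 15.9, Pcna 1528, 658 and 471 and Mki67 88.1, 100.5 and 71.9, so the first 2 were lower and Mki67 stayed within 2-fold. Pcna is also in the list of other repair genes. The part of proliferation in the repair gene ratios was not tested.

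Since most members differed in one direction, their promoters were compared. RefSeq windows of GRCm38.p6, from 250 bases before to 50 after a transcription start, were found for 55 of the 70 members. They were searched on both strands for the E2F sites TTTCCCGC and TTTGGCGC, the CCAAT box and the cell cycle element TTTGAA. An E2F site was in a window of 7 of 55 members (12.7%), Brca2, Fancg, Msh3, Msh5, Msh6, Rad51c and Xrcc6, against 2.70% of 13127 genes named on the array. Of the 28 members lower for the marrow ratio, 5 (17.9%) had one, and of the 20 detected on both arrays and not lower, 2 (10%). A CCAAT box was in 28 of 55 members (50.9%), against 41.9% of the array's genes, and in 12 of 28 (42.9%) lower members and 13 of 20 (65.0%) that were not. TTTGAA was in none of the 28 and in 5 of the 20 (25.0%), against 16.5% of the array's genes. A match is a description of letters and shows no binding.

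The windows of 4 members are printed without the bases after the start: Xrcc3, which was higher in both Venus+ populations, Parp3, which had the smallest marrow ratio, and Brca2 and Msh3, which were lower and hold an E2F site. Each is the gene's own strand, 250 bases up to the start, with matches to the searched letters in capitals. The locations, in GRCm38.p6, are chr12:111813880-111814129, minus strand for Xrcc3, chr9:106476950-106477199, minus strand for Parp3, chr5:150522371-150522620, plus strand for Brca2 and chr13:92355004-92355253, minus strand for Msh3.
Xrcc3: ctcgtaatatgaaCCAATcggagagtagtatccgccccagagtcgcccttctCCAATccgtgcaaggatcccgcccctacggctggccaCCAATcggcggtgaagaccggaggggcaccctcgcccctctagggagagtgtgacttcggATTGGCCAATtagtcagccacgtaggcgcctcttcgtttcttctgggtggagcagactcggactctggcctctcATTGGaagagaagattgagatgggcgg
Parp3: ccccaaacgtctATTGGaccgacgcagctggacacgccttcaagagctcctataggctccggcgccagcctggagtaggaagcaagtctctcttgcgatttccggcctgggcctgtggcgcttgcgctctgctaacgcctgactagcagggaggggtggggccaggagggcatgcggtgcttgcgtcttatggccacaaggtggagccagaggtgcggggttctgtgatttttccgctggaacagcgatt
Brca2: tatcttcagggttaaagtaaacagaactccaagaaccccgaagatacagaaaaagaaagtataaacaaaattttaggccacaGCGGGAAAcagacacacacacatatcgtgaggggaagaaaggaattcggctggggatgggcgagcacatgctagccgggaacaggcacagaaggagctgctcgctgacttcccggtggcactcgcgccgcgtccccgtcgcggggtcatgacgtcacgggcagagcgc
Msh3: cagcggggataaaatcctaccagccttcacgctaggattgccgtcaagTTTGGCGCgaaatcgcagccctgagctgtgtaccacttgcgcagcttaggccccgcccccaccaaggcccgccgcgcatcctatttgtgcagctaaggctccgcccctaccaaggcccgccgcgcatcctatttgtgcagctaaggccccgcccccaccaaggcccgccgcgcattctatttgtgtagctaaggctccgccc
The Xrcc3 window holds 6 CCAAT boxes, counting both strands, a number reached by 26 of 32851 windows (0.0791%) and by no other member. The printed genes were chosen, and the Xrcc3 boxes counted, after the signals were seen. The single match in Parp3 is also a CCAAT box, on the other strand, and Brca2 and Msh3 hold 1 E2F site each.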

How the data were processed

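Gene expression was measured in 3 sorted populations with 1 array each. Per the file headers, the scanner files the authors deposited hold the median intensity and a local background of each spot. A second deposited table holds normalized intensity; the design text says that blank spots were subtracted and the median set to 25. It is linear and uncentred. The signals used here were rebuilt from the scanner files: the mean of the middle 90% of 2736 blank spots was subtracted, spots more than 2 SD above it were detected, and the detected median was set to 25. Detection differed from the deposited table for 0 probes on each array. Gene names came from the platform annotation, updated through RefSeq synonyms (66 of the 70 symbols were current). Where a gene had several probes, the brightest stood for it. Faulty spots (0, 1 and 2) were left out. The lowest detected signals were 1.34, 1.74 and 2.35. Where a gene was detected on 1 array, its fold is a lower bound, against the higher of the dim array's lowest detected signal and the probe's own signal. The spot error joins the SD of blank spots (0.670, 0.868 and 1.18) with the relative SD of positive controls (7.54%, 5.73% and 5.12%).

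Members and lists were chosen with earlier results of these data known. Genes were named as the 10 largest and 10 smallest ratios of a comparison, bounds of at least 2-fold, list extremes and class-switch genes; the other members are given to account for all 70. The functions were tested on simulated data. Alternatives were the deposited table, normexp (limma 3.58.1), other blank spots, a limit of 3 SD, 3 scalings, means of probes and a minimum signal of 10. Python 3.11.15 was used.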

Additional observations from a re-analysis of the deposited data

How the results depend on the processing

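No paired analysis was possible because each population has 1 array and the labels carry no replicate numbers. In every setting tried the members' median lay below 0 in each comparison. With the authors' deposited table, a limit of 3 SD or the mean of probes, each count of members called stayed within 1.5 times its reported value. With normexp on the local background, 0, 0 and 0 members were higher and 1, 4 and 1 lower for the spleen, marrow and organ ratios. The medians were -0.12, -0.13 and -0.035, and 4.40%, 9.45% and 3.30% of all genes were lower. On the blank level, chosen after seeing the data, 0, 0 and 0 were higher and 7, 19 and 2 lower, with medians of -0.28, -0.64 and -0.19. There 10.1%, 19.8% and 2.77% of all genes were lower. For detected probes the local background was a median of 75.3% (B220+), 74.3% (spleen Venus+) and 80.8% (marrow Venus+) of the spot. Whether the local background follows the spot's own signal was not tested. On the local background, signs turned for the spleen ratios of Parp9 (0.38), Rad50 (0.16), Rad9 (0.0072) and Xrcc3 (-0.092), the marrow ratios of Apex1 (0.72), Parp9 (0.089) and Rad9 (0.064), and the organ ratios of Apex1 (0.38), Apex2 (0.024), Poli (0.058) and Rad21 (0.31). On the blank level they turned for the marrow ratios of Apex2 (0.026) and Fancg (0.046). Why single genes turned was not tested. With spots that hold no probe as the blank, 5 members were higher and 9 lower for the spleen ratio (median -0.35). Of all genes 26.4% were higher and 9.94% lower there. The marrow median was -1.11. For the organ ratio 0 of 56 members were higher and 26 lower (median -0.88), beside 3.41% and 21.1% of all genes. Scaled to common probes, 1 was higher for the spleen ratio, the marrow median was -0.99, and 3 were higher and 12 lower for the organ ratio (median -0.38). Scaled to the 75th percentile, the medians were -0.56, -0.79 and -0.37. There 3 members were higher and 12 lower for the organ ratio, beside 11.4% and 7.94% of all genes. With quantile normalization 1 was higher and 16 lower for the spleen ratio, beside 13.6% and 15.7% of all genes. For the organ ratio 3 were higher and 15 lower (median -0.45), beside 10.8% and 10.2%, and the marrow median was -0.96. A signal of at least 10 left 52 members for the spleen ratio and 44 for the marrow ratio. Of the 52, 1 was higher and 14 lower, beside 9.85% and 18.9% of all genes. Of the 44, 1 was higher and 26 lower, beside 14.5% and 34.6%. Outside the normexp pair, 32 of 80 called ratios kept their call in every setting, 31 lost it in at least 1, and 17 kept it where they had a value but had none in some. Faint signals limit the dim members: the median spot error was 0.14 to 0.16, and that of Parp3 0.52.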
